A study of Mus musculus with 2 samples.

Results

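The matrix metalloproteinases (MMPs), the ADAMTS proteases and their tissue inhibitors (TIMPs) were followed in skin cells of control mice and of mice given testosterone propionate (TP), a model of androgenetic alopecia (AGA). Members were taken by symbol: Mmp, Adamts or Timp followed directly by a number, with letters only after it, and with at least 1 UMI (unique molecular identifier, 1 counted transcript molecule) over both count matrices. The rule found 45 genes, 22 Mmp, 19 Adamts and 4 Timp, among 26562 genes with a UMI and 32285 genes listed. MMPs are secreted or membrane-bound zinc enzymes that cut collagens, elastin and other matrix proteins, and most are made as inactive precursors that other proteases open. ADAMTS proteases are secreted relatives that cut proteoglycans such as versican and aggrecan, trim procollagens, or act on fibrillin microfibrils. TIMPs bind the active site of MMPs and block it, and ADAMTS proteases are blocked by only some TIMPs, mainly TIMP3. In skin these genes are known for the remodelling of dermis and hair follicle through the hair cycle and for the movement of keratinocytes in wounds.

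Both groups were male C3H/HeN mice, 7 weeks old at the start and 9 weeks old at harvest. The control group received vehicle and the TP group 0.5 mg of testosterone propionate per day, and the cells of 15 mice per group were pooled into 1 single-cell library. Mice that also received the CXCL12 antibody (TP + Ab) are not analysed here. With 1 library per group there was no replicate spread, no test was made, and all intervals are 95% intervals that cover counting error only. Every TP to control difference below is therefore a difference between 2 libraries, in which treatment, pool and library cannot be told apart.

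After filtering, 39076 control cells with a median of 2050 UMIs and 18542 TP cells with a median of 4838 UMIs were kept. More TP barcodes than control barcodes were over the mitochondrial limit, 22.6% against 7.58%, and 183 kept barcodes were shared by both libraries. Cell classes were built without the 45 members, are called "-like", and were named from fixed markers. A cluster left without a name is given by its leading genes. Dermal fibroblast (DF)-like cells held 0.312% of control UMIs (90 cells) and 3.61% of TP UMIs (560 cells), and their summed fibroblast markers reached 70519 and 86561 counts per 1000000 UMIs (CPM). The same sum was 1155 and 1244 CPM in dermal papilla cell (DPC)-like cells and 117 and 154 CPM in interfollicular epidermis (IFE) basal-like cells. The dermal sheath-like cluster, led by Dkk2, Gpc5, Igfbp3 and Lrrc15, held 196 control and 443 TP cells, and 419 and 471 with another clustering seed.

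Over all kept cells, some members were at least 2-fold higher in the TP library. No member with at least 50 UMIs over both libraries was at least 2-fold lower. Of 37 members with at least 50 UMIs over both libraries, 15 had a CPM ratio of 2 or more (with 1 UMI added per library), and the other 22 lay between 0.5 and 2. All genes of that depth gave 8.18% higher and 10.2% lower, against 40.5% and 0 of the members. Mmp1b, Mmp13, Mmp10, Mmp12 and Mmp27 reached 50 UMIs only through TP, and Mmp9 mostly so, with 11 control and 44 TP UMIs. The members' counts here and in each class therefore describe those that passed and support nothing beyond them. The median log2 ratio was 0.73 for the members and -0.23 for all 17575 genes. With TMM factors, which put the TP library at 0.844 of control, 18 members were higher and 0 lower, and of all genes 11.2% were higher and 5.91% lower. With a pseudocount of 0.1 per 10000, Mmp2, Mmp3, Adamts1 and Timp2 were the members still higher, against 1.70% of all genes. The 8 members under 50 UMIs (Mmp8, Mmp7, Mmp24, Mmp25, Mmp20, Mmp21, Adamts8 and Adamts16) were not called.

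The stromelysin Mmp3, which cuts many matrix proteins and opens other MMP precursors, went from 355 control to 3710 TP UMIs, or from 3.31 to 28.0 CPM, a ratio of 8.46 (7.58 to 9.46). The inhibitor Timp1 went from 63 to 666 UMIs (8.56, 6.60 to 11.3), and Mmp27, a little-studied secreted MMP, from 40 to 451 (9.13, 6.60 to 12.9). These 3 had the largest whole-library ratios among the 30 members with at least 300 UMIs. Mmp2, the gelatinase of connective tissue, went from 19.6 to 51.1 CPM (2.61, 2.48 to 2.74). Timp2, which both inhibits MMP2 and takes part in its activation at the cell surface, went from 39.6 to 129 CPM (3.27, 3.16 to 3.38). Mmp14, the membrane protease that activates MMP2, stood at 61.0 and 73.1 CPM (1.20), and the matrix-bound inhibitor Timp3, the member with the most UMIs, at 140.0 and 135 CPM (0.963). Over whole libraries Timp2 and Mmp2 were past 2-fold and Mmp14 was not, an order that did not hold within DF-like cells, where the ratios were 1.17, 1.10 and 1.40.

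Among the proteoglycan-cleaving ADAMTS genes, Adamts5 (568 to 2547 UMIs, ratio 3.63), Adamts4 (124 to 453, 2.96) and Adamts1 (2294 to 7912, 2.79) were higher, whereas Adamts9 had 60.0 CPM in control and 52.4 CPM in TP (0.873). Adamts15 (1.78) and Adamts20 (1.37) lay below 2-fold. Of the procollagen N-proteinases, which trim procollagens before fibrils form, Adamts2 had a ratio of 1.97, Adamts14 of 1.10 and Adamts3 of 0.941. Adamts18, an ADAMTS with few known substrates, went from 278 to 1383 UMIs (4.03, 3.54 to 4.60), and Mmp23, an MMP held in the membrane by its front end, from 216 to 1128 (4.23). The members with the lowest whole-library ratios among the 30 were Mmp15 (0.642), Adamts10 (0.655) and Adamts6 (0.741). The remaining 9 of the 30 lay between 0.895 (Mmp16) and 1.82 (Adamts19). Of the 7 members with at least 50 but fewer than 300 UMIs, Mmp1b, Mmp13, Mmp10, Mmp12 and Mmp9 were higher, with 1, 7, 14, 12 and 11 control UMIs and 68, 108, 156, 57 and 44 TP UMIs, and Adamts7 and Adamts13 lay between 0.5 and 2.

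**Figure D1:**
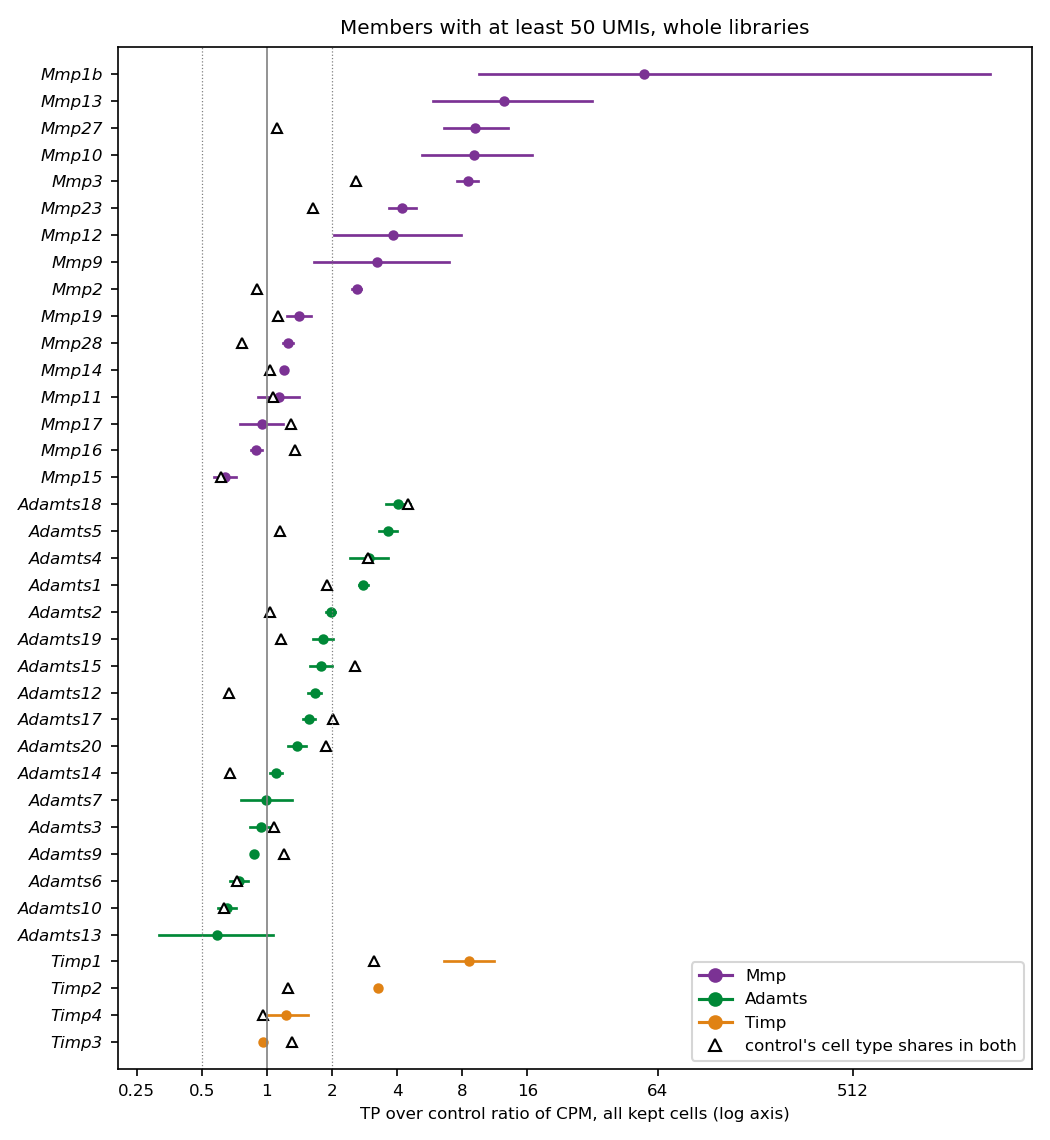
TP over control ratio of CPM over all kept cells (log axis) for the 37 members with at least 50 UMIs, with exact 95% intervals for counting error. Triangles give the ratio that the 30 members with at least 300 UMIs had with the control library's cell type shares: Mmp2 moves from 2.61 to 0.903 and Adamts18 from 4.03 to 4.51.

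The whole-library ratios depended on the shares of the cell classes, which were changed together here and not 1 by 1. When the TP classes were weighted by the UMI shares that the classes had in control, 9 members were higher (Mmp1b, Mmp13, Mmp3, Mmp10, Adamts4, Adamts15, Adamts17, Adamts18 and Timp1) against 3.37% of all genes. Mmp2 then had a ratio of 0.903 in place of 2.61, Timp2 1.26 in place of 3.27, Mmp27 1.12 in place of 9.13 and Adamts5 1.15 in place of 3.63. Mmp3 had 2.58 in place of 8.46 and Timp1 3.14 in place of 8.56, both still past 2-fold, and Adamts18 had 4.51 in place of 4.03. In the TP library, DF-like cells held 94.7% of Mmp27 UMIs, 76.7% of Mmp23, 73.9% of Adamts5, 67.1% of Timp1, 64.2% of Mmp3, 63.5% of Mmp2 and 62.4% of Timp2. In control, DPC-like cells held 48.5% of Mmp2 and 52.1% of Timp2.

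The class of highest level differed between members. DF-like cells led in both libraries for Mmp2, Mmp3, Mmp14, Mmp23, Mmp27, Adamts2, Adamts5, Adamts12 and Timp2. Melanocyte-like cells had the most of Mmp16, a membrane-type MMP (302 CPM in control, 234 CPM in TP), ahead of DPC-like cells (139.9 and 212 CPM). Endothelial-like cells had the most Timp3 (1123 and 1467 CPM). They numbered 92 in control and 176 in TP, of which 41 and 23 remained when 15% of barcodes were removed as doublets. Smooth muscle genes led a cluster (Myh11 and Tagln) that in TP had 192 CPM of Timp4, a TIMP of restricted expression, and 445 CPM of Adamts9, although it held only 48 control and 84 TP cells. Mmp28 (epilysin, an MMP of keratinocytes) was highest in a cluster led by Ghr and Il34 (114 and 111 CPM), followed by IFE basal-like cells, and Adamts14 was highest in IFE basal-like cells (94.9 and 74.9 CPM). A cluster led by Lgr5 and Trabd2b, genes of the lower outer root sheath and follicle stem cells, was highest in both libraries for Adamts19 (149 and 112 CPM), Adamts17 (71.4 and 128 CPM) and Adamts3 (23.4 and 21.5 CPM). Adamts19 in that cluster held 45.1% of the gene's control UMIs and 73.5% of its TP UMIs.

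**Figure D2:**
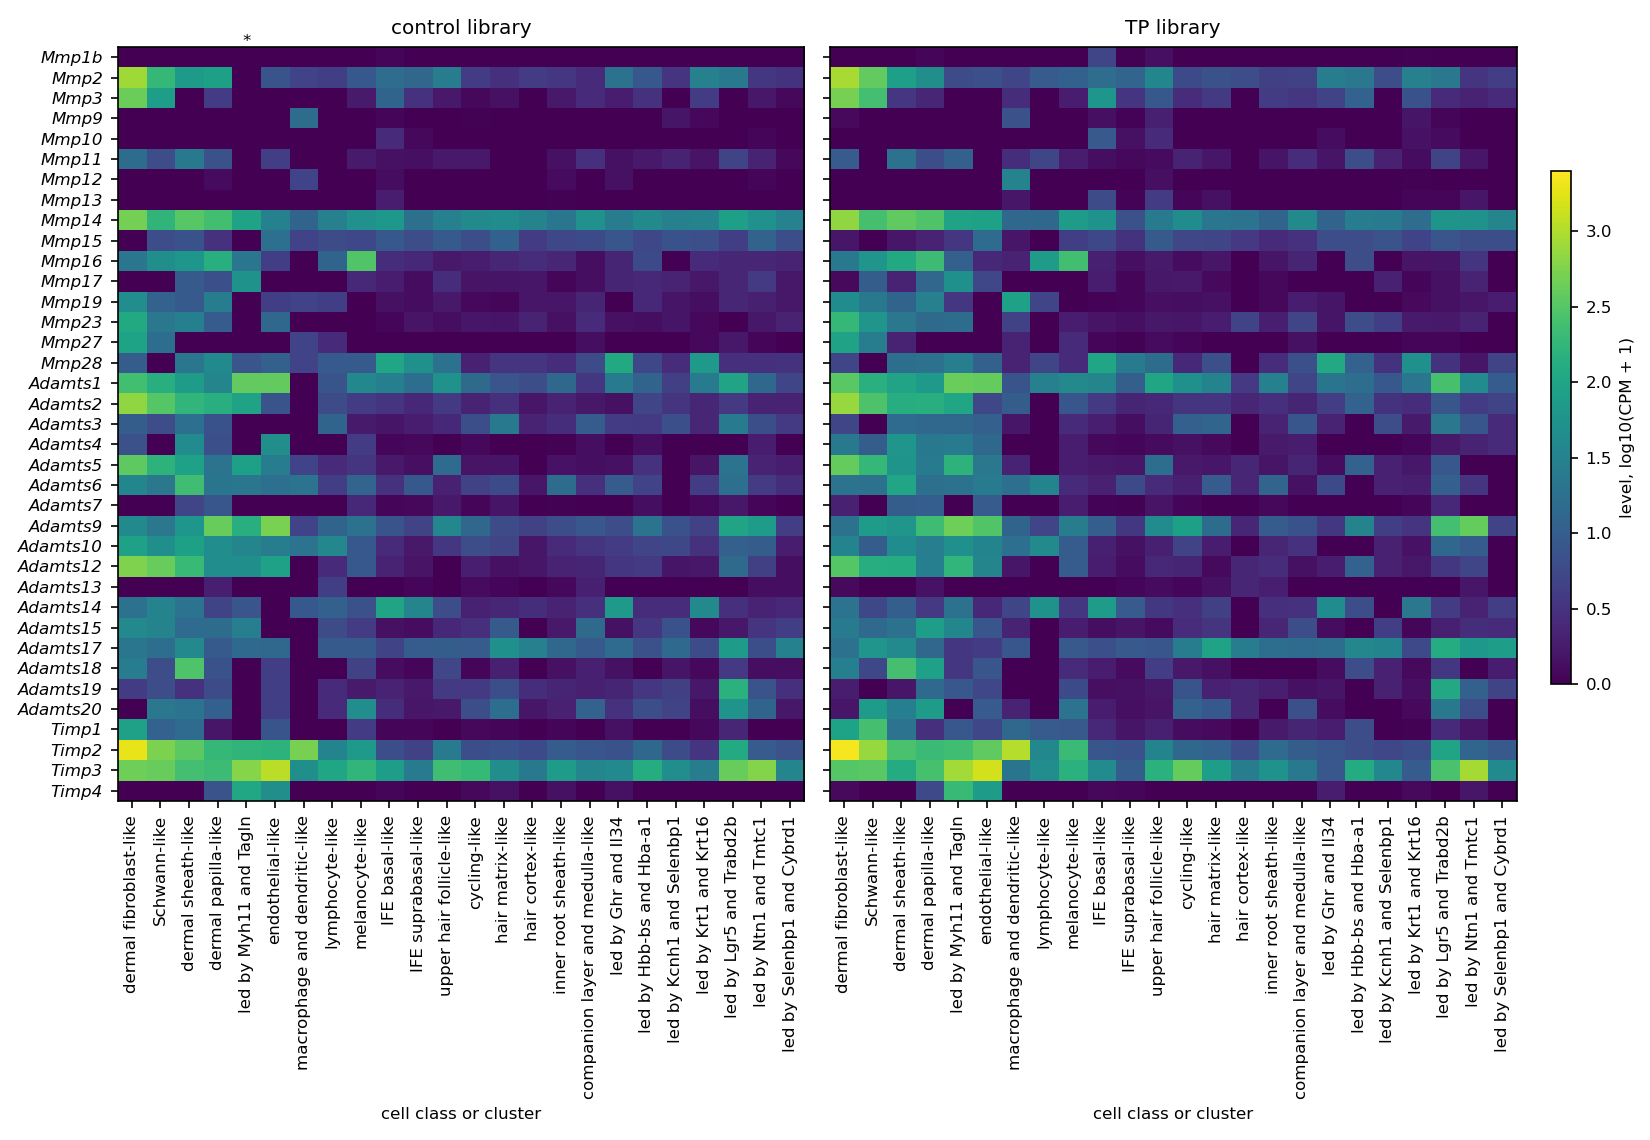
Level of each of the 37 members with at least 50 UMIs (log10 of CPM + 1, colour scale from 0 to 3.4) by cell class or cluster in the control and TP libraries, with an asterisk for columns in which a library had under 50 cells. Mmp2, Mmp3, Mmp23, Mmp27, Adamts5 and Timp2 are brightest in DF-like cells, Mmp16 in melanocyte-like cells and Adamts19 in the cluster led by Lgr5 and Trabd2b.

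Within DF-like cells most members stood at similar levels in both libraries. Of 22 members with at least 50 UMIs there, 1 was at least 2-fold higher (Adamts4) and 3 at least 2-fold lower (Adamts9, Adamts6 and Adamts10), where all 8753 genes gave 3.56% and 7.09%, and the median log2 ratios were -0.07 for members and -0.21 for all genes. With TMM factors 1 member was higher and 2 lower, and of all genes 6.03% and 3.21%. Thinned to 1000 UMIs, 11 members kept at least 50 UMIs and none was called in either direction. Timp2 was the most abundant member with 1913 control and 2232 TP CPM (1.17, 1.08 to 1.27). Mmp2 stood at 819 and 898 CPM (1.10, 0.970 to 1.24) and Mmp3 at 430.5 and 498 CPM (1.16, 0.977 to 1.38), both with intervals that include 1. Mmp14 had 493 and 693 CPM (1.40, 1.20 to 1.65), Mmp23 114 and 181 CPM (1.59), and Adamts1 236 and 337 CPM (1.43).

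Among the ADAMTS genes of DF-like cells, Adamts2 (679 and 749 CPM) and Adamts5 (365 and 393 CPM) were close in both libraries. Adamts12, which cuts cartilage oligomeric matrix protein, had 550 CPM in control and 314 CPM in TP (0.572, 0.490 to 0.670). Adamts10, a binder of fibrillin microfibrils, had 86.7 and 33.0 CPM (0.381) on 29 control UMIs, and Adamts4 had only 2 control UMIs against 109 in TP. Timp1 (86.7 and 93.3 CPM) and Mmp27 (92.7 and 89.2 CPM) did not differ beyond counting error, so that their whole-library ratios of 8.56 and 9.13 were not matched within the class. The control side of these values is thin: 90 cells, of which 3 remained when 15% of barcodes were removed as doublets, against 434 of 560 in TP. Median depth was 3442 UMIs in control and 7886 UMIs in TP.

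**Figure D3:**
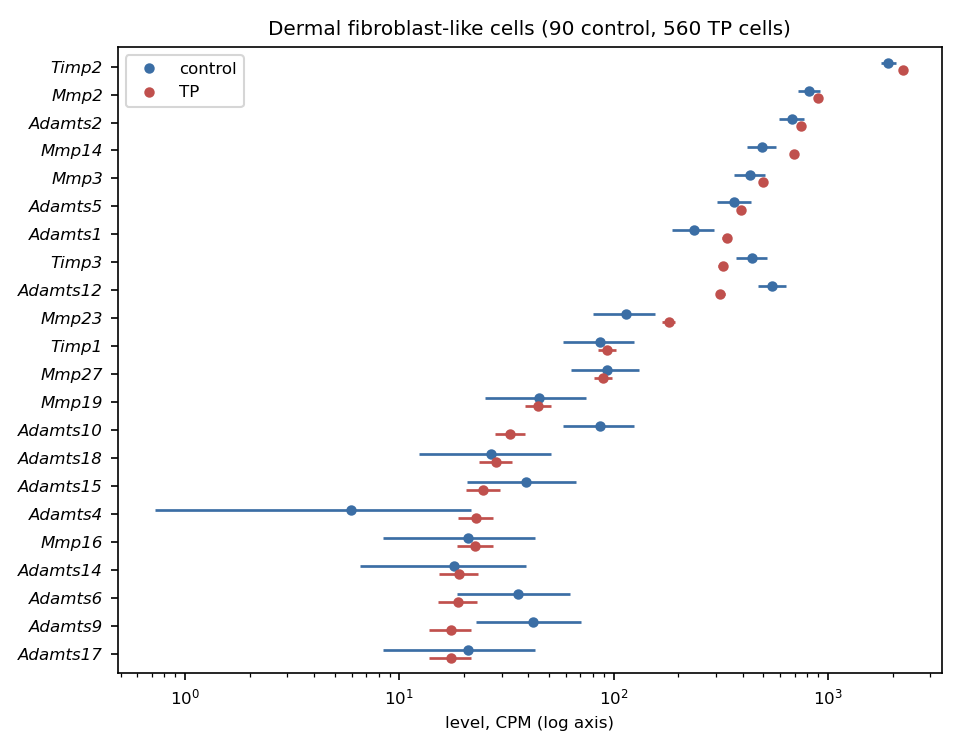
CPM (log axis) of the 22 members with at least 50 UMIs in DF-like cells, control and TP, with exact Poisson 95% intervals. In order of TP level, the members run from Timp2 at 1913 and 2232 CPM down to Adamts9 at 41.9 and 17.3 CPM, with Adamts17 at the same TP level. In control Adamts4 was lowest, at 5.98 CPM.

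The DF-like cells were not uniform in these genes. In TP, Mmp3 was high in the subclusters led by Col1a1, Igfbp2 and Lum (928 CPM, 78 cells) and by C7 and C3 (864 CPM, 97 cells), and low in those led by Pi16 and Ebf2 (181 CPM, 66 cells) and by Sfrp4 and Ogn (71.3 CPM, 65 cells). Timp3 ran the other way, with 53.9, 118, 569 and 859.5 CPM in the same order. Adamts5 was highest in the Pi16 subcluster (800.2 CPM) and Timp1 in the Sfrp4 subcluster (191 CPM). The largest subcluster, led by Col1a1 (254 cells), had 427 CPM of Mmp3, 288 CPM of Timp3 and 55.9 CPM of Adamts18. Adamts18 was at 0 in the subclusters led by C7, Lum and Sfrp4. Mmp2, at 719 to 1129 CPM, and Timp2, at 2067 to 2667 CPM, varied far less. These subclusters share 1 library, so their differences are given as levels.

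In DPC-like cells, the signalling cells at the base of the follicle, several ADAMTS genes stood higher in TP while Adamts9 and Mmp2 stood lower. Of 27 members with at least 50 UMIs, 7 were at least 2-fold higher (Mmp17, Adamts4, Adamts15, Adamts20, Adamts3, Adamts18 and Adamts19) and 1 lower (Mmp28), against 3.75% and 7.32% of 12849 genes. The median log2 ratio was 0.34 for members and -0.10 for all genes. Thinned to 1000 UMIs, Adamts4, Adamts15, Adamts20 and Adamts18 were higher, and Mmp28 and Adamts10 lower. With an estimate of free RNA taken off, more members were counted as lower, as given in the last section. Adamts18 had 74 control UMIs in 4076 cells and 750 TP UMIs in 1338 cells, which is 6.18 and 88.4 CPM (14.3, 11.3 to 18.4). Adamts20, a versican-cleaving protease known from the pigment pattern of mouse coats, went from 9.93 to 71.4 CPM (7.19, 5.90 to 8.83). Adamts15, another versican-cleaving protease, went from 14.8 to 77.5 CPM (5.25, 4.44 to 6.23). Of cells thinned to 1000 UMIs, 0.725% of control and 5.87% of TP DPC-like cells held an Adamts18 UMI, where inner root sheath-like cells, a keratinocyte background, gave 0.015% and 0. The thinned shares were 0.913% and 6.03% for Adamts20 and 1.34% and 6.11% for Adamts15. Unthinned, Adamts18 was found in 61 control and 172 TP cells, with at most 47 UMIs in 1 cell.

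Adamts9, also a versican-cleaving protease, was the most abundant ADAMTS gene of DPC-like cells and went the other way, from 409 to 221 CPM (0.541, 0.512 to 0.570) and from 29.9% to 17.1% of thinned cells. Mmp2 had 85.2 and 46.5 CPM (0.546) and Mmp28 39.8 and 17.9 CPM (0.450). Mmp16 stood at 139.9 and 212 CPM (1.52), Mmp14 at 232 and 293 CPM (1.26), Timp3 at 213 and 258 CPM (1.21), and Timp2 at 184 and 207 CPM (1.12). Versican (Vcan), the main proteoglycan of the papilla and a substrate of Adamts9, Adamts15 and Adamts20, had 4131 CPM in control and 6886 CPM in TP in these cells (1.67). It is no member and was singled out after its values were seen.

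The DPC-like class joined 2 clusters in unequal proportion. The first was led by a (agouti), Adgrb3, Fgf14, Zfp804b and Sostdc1 and held 1891 control and 1038 TP cells. There Adamts18 had a ratio of 27.8 (18.5 to 43.6; 24 against 718 UMIs), Adamts20 8.87, Adamts15 7.35 and Adamts19 4.96, and Adamts9 went from 467 to 200.4 CPM (0.430, 0.403 to 0.457). The other was led by Ndnf, Tmem132c and Rspo4, and held 2185 control and 300 TP cells. In it Adamts18 had a ratio of 2.70 (1.67 to 4.28), Adamts15 2.02 and Adamts20 1.67 (0.983 to 2.75). Adamts9 in that cluster stood at 335 and 339.6 CPM (1.01, 0.910 to 1.13), and Mmp2 had a ratio of 1.05 against 0.470 in the first cluster. Adamts2 had 2.06 (1.75 to 2.42) against 0.723, Adamts6 1.66 against 0.917 and Adamts5 1.70 against 1.40. Several other members also had their higher ratio in the second cluster, such as Timp3 (1.79 against 0.955) and Mmp19 (1.59 against 0.981). Others had it in the first, such as Adamts1 (1.89 against 2.39). Mmp28 was lower in both (0.604 and 0.424). The markers of dermal sheath summed to 2476 CPM in control and 3511 CPM in TP in DPC-like cells, and to 3719 and 3185 CPM in the dermal sheath-like cluster, and their part in the Adamts18 value was not tested.

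**Figure D4:**
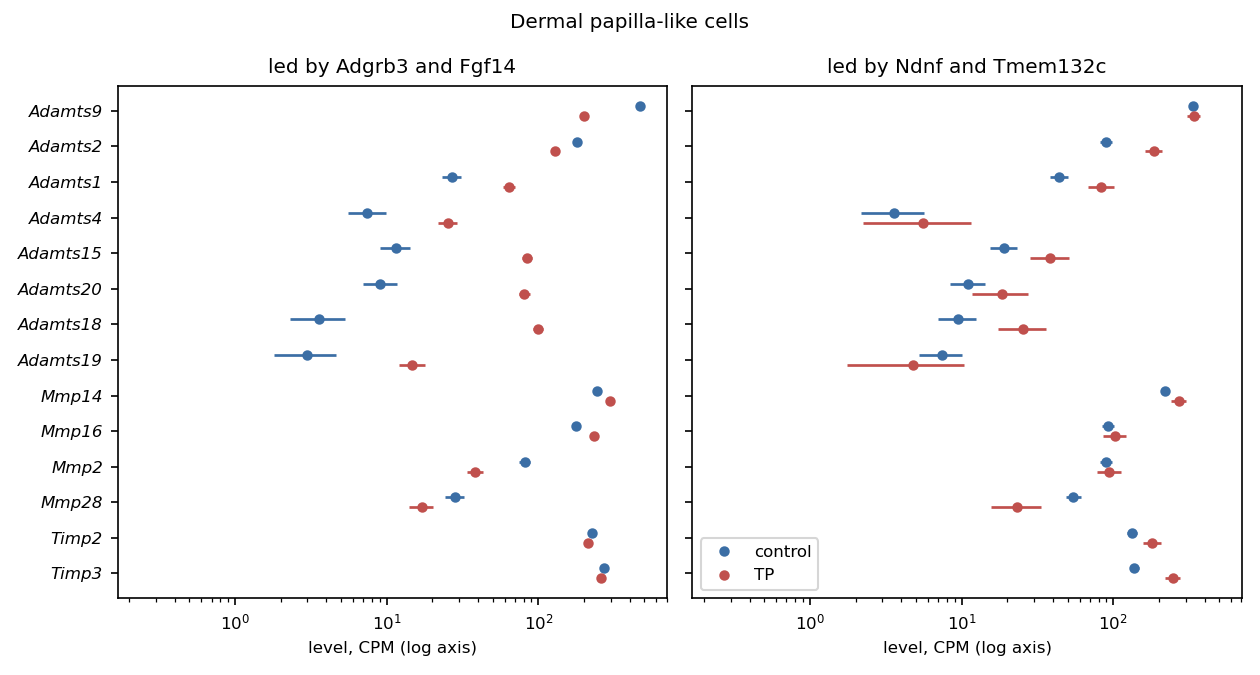
CPM (log axis) of 14 members in the 2 DPC-like clusters, control and TP, with exact Poisson 95% intervals. In the left cluster Adamts18, Adamts20 and Adamts15 lie at 99.2, 80.6 and 84.3 CPM in TP, far right of 3.58, 9.09 and 11.5 CPM in control, and Adamts9 lies left of control. In the right cluster the 2 Adamts9 points coincide.

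The dermal sheath-like cluster, which also held 5780 and 8170 CPM of fibroblast markers and fewer sheath markers than the cluster led by Myh11 and Tagln (14425 and 19725 CPM), had the highest Adamts18 level of any class, 293 CPM in control and 246 CPM in TP (0.839), together with 324 and 369 CPM of Mmp14. Of 16 members with at least 50 UMIs, 0 were higher and 1 lower (Adamts6, 227 and 100.1 CPM), against 4.31% and 4.73% of 6914 genes, with median log2 ratios of -0.16 and -0.10. With TMM factors Mmp16 (59.4 and 115 CPM) was also counted as higher, so the split was 1 and 1, and all genes gave 6.29% and 2.95%. The cluster depended on the clustering: Adamts6 had a ratio of 1.58 at the finer resolution of 2, and Adamts18 of 3.13. More members were counted as higher and as lower with another clustering seed, and more as lower with free RNA taken off, as given in the last section.

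IFE basal-like cells, the dividing layer of the epidermis, were a further site of Mmp3. They held 91.2% of the TP library's Mmp1b UMIs, 76.3% of Mmp10, 68.5% of Mmp13 and 24.7% of Mmp3. Upper hair follicle-like cells held 21.3% of Mmp13 and 8.33% of Mmp10 in TP. Mmp3 there had 2 control and 61 TP UMIs (10.9, 2.90 to 92.4). The Mmp3 ratio was 2.20 in the cluster led by Krt1 and Krt16 and 1.10 (0.663 to 1.90) in IFE suprabasal-like cells. Of 15 members with at least 50 UMIs in IFE basal-like cells, 4 were at least 2-fold higher (Mmp1b, Mmp13, Mmp3 and Mmp10) and 0 lower. All 11488 genes gave 1.48% and 3.39%. The median log2 ratio was 0.30 for members and -0.14 for all genes. With TMM factors the members' counts were 4 and 0, and all genes gave 2.24% and 2.31%. Mmp1b, Mmp13 and Mmp10 reached 50 UMIs only through TP here too. Mmp3 had 83 control and 916 TP UMIs, or 11.5 and 60.9 CPM (5.29, 4.22 to 6.71). Mmp10, the second stromelysin, had 11 and 119 UMIs (5.19, 2.80 to 10.7), and Mmp13, which opens fibrillar collagen, and Mmp1b, its relative of the interstitial collagenase group, had 6 and 74 UMIs (5.91, 2.59 to 16.6) and 1 and 62 UMIs (29.7, 5.14 to 1193). The class held 3015 control cells (7.72%) and 3302 TP cells (17.8%). Thinned to 1000 UMIs, with a minimum of 200 UMIs or with a pseudocount of 0.1 per 10000, Mmp3 alone of the 4 was still called. At a mitochondrial limit of 5%, which left 2304 and 1953 of these cells, the Mmp3 ratio was 5.39 and that of Mmp10 was 3.68.

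These 4 genes lie close together on chromosome 9, in a run of 9 Mmp genes that spans 427 kb (RefSeq GRCm38.p6). The 120 bases before each start are shown because the 4 genes were higher together and each stretch holds the same short motif. The capitals mark the AP-1 motif TGAGTCA, searched on both strands so that TGACTCA is the same site reversed, and the TATA-like letters TATAAA, also searched on both strands.
Mmp1b, minus strand, chr9:7388027-7388146: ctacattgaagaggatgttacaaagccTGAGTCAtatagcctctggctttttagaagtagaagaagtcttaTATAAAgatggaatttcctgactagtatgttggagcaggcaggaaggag
Mmp13, plus strand, chr9:7272394-7272513: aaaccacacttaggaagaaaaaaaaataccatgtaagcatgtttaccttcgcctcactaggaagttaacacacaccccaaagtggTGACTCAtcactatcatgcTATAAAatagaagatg
Mmp3, plus strand, chr9:7445702-7445821: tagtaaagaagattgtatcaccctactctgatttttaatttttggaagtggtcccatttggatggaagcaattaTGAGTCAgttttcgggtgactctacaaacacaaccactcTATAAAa
Mmp10, plus strand, chr9:7502222-7502341: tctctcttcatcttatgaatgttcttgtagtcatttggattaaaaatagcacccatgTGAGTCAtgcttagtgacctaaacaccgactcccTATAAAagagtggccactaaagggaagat

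The AP-1 motif began 93 bases before the start in Mmp1b, 35 in Mmp13, 46 in Mmp3 and 63 in Mmp10. In windows from 250 bases before to 50 after the start, it was found in 5 of the 31 members with a RefSeq window (16.1%, these 4 and Mmp7). Of all 27025 windows, 5.17% held it. All 5 lie in the chromosome 9 run, so they are neighbouring genes and not 5 separate cases. Mmp12 and Mmp27, of the same run and also higher over whole libraries, had 0 matches. The letters TATAAA, on either strand and at any place in the window, were in 9 of 31 (29.0%) and in 14.2% of all. They began 49 bases before the start in Mmp1b, 16 in Mmp13, 7 in Mmp3 and 29 in Mmp10, so a match need not be a TATA box. A match is a description of the letters, not of binding.

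Mmp3 was uneven over the 3 IFE basal-like clusters. In the cluster led by Krt14 and Krt15 (1168 control and 1266 TP cells), Mmp3 had 57 and 734 UMIs, or 15.9 and 92.7 CPM (5.83). In that led by Sox6 and Cdh13 (1400 and 1483 cells) it had 6 and 112 UMIs, or 2.75 and 32.5 CPM (11.8, 5.26 to 32.9). The proliferating cluster led by Anln and Ect2 (447 and 553 cells) had 13.9 and 19.1 CPM (1.38, 0.827 to 2.39). Few cells carried these transcripts: 54 control cells (1.79%) and 205 TP cells (6.21%) held an Mmp3 UMI, and 1 TP cell alone held 109. Mmp13 was in 18, Mmp10 in 28 and Mmp1b in 31 TP cells, with at most 27, 19 and 9 UMIs in 1 cell. Thinned to 1000 UMIs, 0.829% of control and 2.45% of TP cells held Mmp3, against 0.046% of inner root sheath-like cells in control and 0 of 832 TP cells, a count that would still permit 0.361%.

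**Figure D5:**
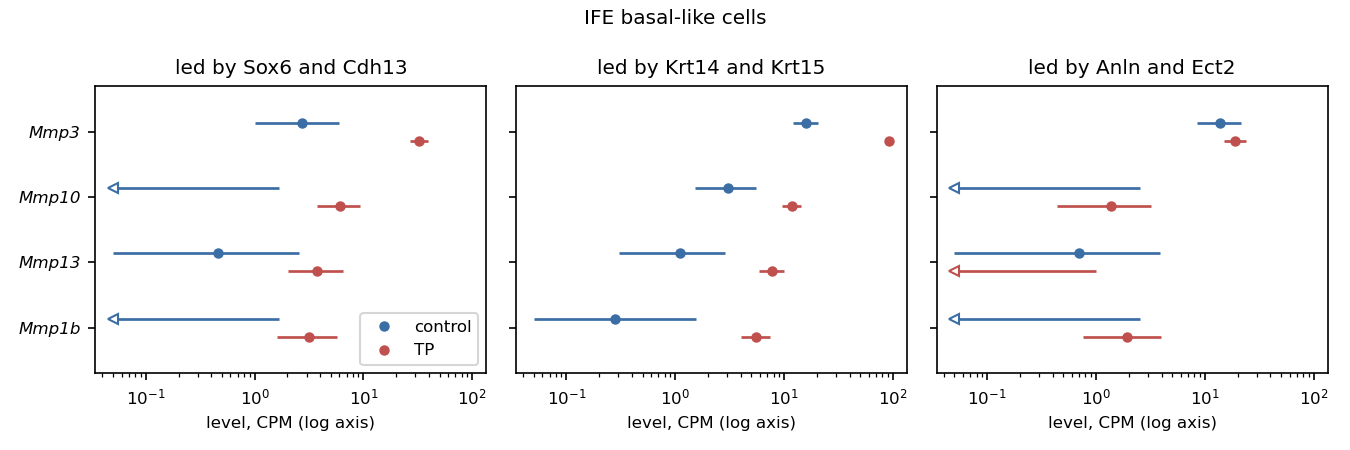
CPM (log axis) of Mmp3, Mmp10, Mmp13 and Mmp1b in the 3 IFE basal-like clusters, control and TP, with exact Poisson 95% intervals cut at 0.05 CPM and open triangles at that edge for values of 0. In the cluster led by Krt14 and Krt15 the Mmp3 points lie at 15.9 and 92.7 CPM, and in the cluster led by Anln and Ect2 at 13.9 and 19.1 CPM with overlapping intervals.

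Cells that held these transcripts overlapped. Of 64 TP IFE basal-like cells with a UMI of Mmp1b, Mmp10 or Mmp13, 29 (45.3%) also held Mmp3, against 5.44% of the other cells. The 64 cells were deeper, with a median of 7125 UMIs against 3362. Thinned to 1000 UMIs, the shares were 29.0% and 2.19%. None of the 560 TP DF-like cells held a UMI of Mmp1b, Mmp10 or Mmp13, a count that would still permit such a UMI in 0.536% of cells and does not limit the cells expressing the genes. Of these cells 305 held Mmp3. Mmp3 per 1000 UMIs of the fibroblast marker list was 396 in TP IFE basal-like cells, 5.75 in DF-like cells and 6.77 in Schwann-like cells. In control these values were 98.2, 6.11 and 5.89.

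The other 11 members with at least 50 UMIs in IFE basal-like cells lay between 0.5 and 2. Mmp28 was the most abundant in both libraries, at 97.7 and 98.1 CPM (1.00). Adamts14 had 94.9 and 74.9 CPM (0.789) and Mmp14 63.3 and 55.0 CPM (0.870). Adamts9 (1.47, 1.05 to 2.08) and Adamts1 (1.23, 1.05 to 1.46) were above control beyond counting error. Timp3 had 76.3 and 42.5 CPM (0.556, 0.496 to 0.625). With an estimate of free RNA taken off (last section), no ratio could be given in this class for Adamts9, Timp2 or Timp3. The part of free RNA in their values, and in sums that hold them, was not tested. TIMP UMIs per protease UMI (all Timp over all Mmp and Adamts) were 0.236 in control and 0.131 in TP in this class. This is a ratio of transcript counts, since each TIMP does not block every protease counted. The same ratio was 0.588 and 0.598 in DF-like cells, 0.304 and 0.321 in DPC-like cells, and 0.544 and 0.529 over whole libraries. With cycling-like cells counted among the other classes and clusters led by keratinocyte genes, the ratio was higher in TP in 3, hair matrix-like (0.278 and 0.398), hair cortex-like (0.297 and 0.434) and IFE suprabasal-like (0.167 and 0.183), and lower in 10. TP over control, these 10 ran from 0.404 in the cluster led by Ghr and Il34, 0.499 in that led by Lgr5 and Trabd2b and 0.518 in that led by Ntn1 and Tmtc1 to 0.951 in cycling-like cells. No interval was made for this ratio, so the split into higher and lower includes differences that counting error may cover. Hair cortex-like cells had only 46 control and 23 TP TIMP UMIs, and the ratio of IFE suprabasal-like cells was 1.10 TP over control.

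In macrophage and dendritic-like cells (122 control and 369 TP cells) 3 members had at least 50 UMIs, and each was at least 2-fold higher, where 5932 genes gave 5.56% higher and 7.72% lower. Mmp19 and Mmp12 reached 50 UMIs only through the TP library, which favours members that are high there, so nothing is read from the count. Members lower were 0, and the median log2 ratios were 2.10 and -0.17. With TMM factors the counts were again 3 and 0, and all genes gave 10.7% and 3.83%. Thinned to 1000 UMIs, no member was called: Timp2 had a ratio of 1.76, and Mmp19 and Mmp12 were under 50 UMIs. At a minimum of 200 UMIs only Timp2 was called. The class came from different clusters in the 2 libraries, since the cluster led by Ccl8 and C1qa held 17 of 122 control and 196 of 369 TP cells. Timp2 had 132 and 1725 UMIs, or 498 and 1035 CPM (2.08, 1.74 to 2.50), and was in 29.3% and 46.9% of thinned cells, against 0.771% and 1.32% of inner root sheath-like cells. Mmp19, an MMP of vessel wall and myeloid cells, had 1 control UMI and 147 TP UMIs in 38 cells (23.4, 4.13 to 929). Mmp12, the macrophage elastase, had 1 and 53 UMIs (8.42, 1.45 to 339), and 34 of the 53 lay in 1 of 6 cells.

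Adamts9, lower in DPC-like cells, was at least 2-fold higher in cycling-like cells, whose origin the markers do not give. It was also at least 2-fold higher in some follicle keratinocyte classes and clusters and not in others. It had 12.5 and 85.4 CPM in cycling-like cells (6.82), 75.0 and 390 CPM in the cluster led by Ntn1 and Tmtc1 (5.20), and 95.4 and 244 CPM in the cluster led by Lgr5 and Trabd2b (2.56). The Adamts9 ratio was 2.84 in hair matrix-like, 1.64 in inner root sheath-like and 1.19 (0.947 to 1.49) in upper hair follicle-like cells. Cycling-like cells came mostly from different clusters in the 2 libraries, since the cluster led by Knl1 and Neil3 held 2774 of 4716 control cells and 247 of 1388 TP cells. In cycling-like cells and the clusters led by Ntn1 and by Lgr5, Adamts1 was also higher, with ratios of 3.50, 3.41 and 2.64, and Adamts17 with ratios of 3.02, 11.7 and 1.79. Timp3 stood at 595 and 879 CPM in the cluster led by Ntn1 and Tmtc1 (1.48) and went from 411 to 265 CPM in that led by Lgr5 and Trabd2b (0.645). In Schwann-like cells Timp1 had 2 control and 55 TP UMIs, of which 46 lay in 1 cell, and fibroblast markers summed to 13593 and 35200 CPM there, so DF RNA and Schwann cell RNA cannot be told apart.

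Of 34 other genes of the pathway (activators, inhibitors, ADAMTS-like and ADAM genes, substrates and docking proteins), 29 had at least 50 UMIs over whole libraries. In all, 7 of these were at least 2-fold higher and 0 lower, and 22 lay between, where all genes gave the 8.18% and 10.2% above. Of the 7, Adamtsl2 had 96 UMIs. Those with at least 300 UMIs included the ADAMTS-like genes Adamtsl3 (2.19) and Adamtsl4 (2.33), and the membrane proteases Adam12 (3.12), Adam19 (2.18) and Adam33 (2.41). Within DF-like cells Adam12, Adam19 and Adam33 had ratios of 0.738, 0.724 and 0.774. As for Mmp2 and Timp2, the whole-library ratios of these 3 genes were not matched within DF-like cells.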

How the data were processed

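The authors counted UMIs per gene and barcode with Cell Ranger 8.0.1 on mm10 and deposited the counts without normalization. Barcodes with 200 to 8000 genes and at most 10% mitochondrial UMIs were kept here, and the 7.5% of highest doublet score per library was removed by a rewritten DoubletFinder procedure (25% artificial doublets, 30 components, nearest 1%). Seurat 5.3.0 (R 4.3.3) gave 2000 variable genes without 79 genes (the 45 members and 34 pathway genes), reciprocal PCA integration, where the study names Seurat's integration step without its anchor method, 30 components and Louvain clusters at resolution 1. Fibroblast, immune and vascular clusters were clustered again on 20 components (resolution 0.3, immune 0.6).

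Clusters took the class of highest mean log2 marker fold (at least 1.0, at least 3 markers; cycling 1.5 and only where no other class passed), and stayed unnamed where another class had as many markers among the 10 leading genes, a rule set after the clusters were seen. UMIs were summed per library and class as CPM, with exact Poisson, Clopper-Pearson and conditional binomial intervals (scipy 1.17.1). TMM factors came from edgeR 4.0.16. Named members had at least 300 UMIs over whole libraries, or were within a class the 12 of most UMIs and 6 of largest ratio. The call rule was also run on simulated counts that held counting error only, which cannot speak to spread between mice or libraries. Levels of different genes are UMIs of 3′ ends, not per length. Timp1, Timp3 and Timp4 lie within Syn1, Syn3 and Syn2, and overlapping genes are uncertain. Timp1 and Timp4 lie on the strand opposite to Syn1 and Syn2, and the strand of Syn3 was not given. Mmp23 overlaps Mib2 (1026 control and 1147 TP UMIs) on the same strand, so its values carry this uncertainty too. Library depth was 130999979 UMIs in 45709 control barcodes and 166929585 UMIs in 25931 TP barcodes. Members and lists were chosen with earlier results of these data known. A pathway gene past the naming limits is not reported here.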

Additional observations from a re-analysis of the deposited data

Results flagged for a closer look

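For 5 members the TP to control ratio was at least 2 in one class and at most 0.5 in another, counting only classes with at least 50 cells per library and 50 UMIs of the gene, and ratios whose counting interval left out 1. With 1 library per group none of these differences between classes was tested. Adamts15 had a ratio of 5.25 in DPC-like cells, 0.393 in companion layer and medulla-like cells and 0.282 in hair matrix-like cells. Adamts20 had 7.19 in DPC-like cells, 0.478 in hair matrix-like cells, 0.409 in melanocyte-like cells, 0.406 in the cluster led by Lgr5 and Trabd2b and 0.462 in that led by Ntn1 and Tmtc1. Adamts9 had 6.82 in cycling-like cells, 2.84 in hair matrix-like cells, 2.56 in the cluster led by Lgr5 and Trabd2b, 5.20 in that led by Ntn1 and Tmtc1 and 0.414 in DF-like cells. The DF-like ratio rested on 14 control and 83 TP UMIs, and none could be given with free RNA taken off. Mmp14 had 2.93 in endothelial-like cells (of which the cluster led by Mecom, Cd36 and Flt1 held 59 of 92 in control and 52 of 176 in TP), 0.361 in IFE suprabasal-like cells, 0.462 in hair matrix-like cells, 0.433 in the cluster led by Ghr and Il34 and 0.476 in that led by Krt1 and Krt16. The endothelial-like ratio rested on 9 control and 61 TP UMIs (1.45 to 6.72). At 15% doublets, 41 control and 23 TP endothelial-like cells remained. Timp3 had 2.13 in cycling-like cells, 0.377 in IFE suprabasal-like cells, 0.458 in lymphocyte-like cells, 0.183 in the cluster led by Ghr and Il34 and 0.326 in that led by Krt1 and Krt16. It had 61 control and 11 TP UMIs in lymphocyte-like cells, and 98 and 26 in the cluster led by Ghr and Il34. Of lymphocyte-like cells, the cluster led by Cd247 and Cd3g held 119 of 297 in control and 12 of 92 in TP. The part of free RNA in the ratios of these 5 members was not tested.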

How the results depend on the processing

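Of the counts of members called and the counts of classes, 98 values stayed within 1.5 times and 44 did not. The counts below are higher and lower members, and the cause of each change was not tested. Whole libraries (15 and 0) gave 4 higher with a pseudocount of 0.1 per 10000, 9 higher with control's cell type shares, 1 lower at 15% doublets (Timp4) and 2 lower with no UMI minimum. DF-like cells (1 and 3) gave 0 and 0 thinned, 4 and 9 at 15% doublets, 17 lower with no minimum, 0 and 0 at a minimum of 200 UMIs, 1 lower with that pseudocount and 2 higher at resolution 2. DPC-like cells (7 and 1) gave 4 and 2 thinned, 11 and 4 with no minimum, 4 higher at 200 UMIs, 4 and 0 with the pseudocount, and 6 lower with free RNA taken off. Dermal sheath-like cells (0 and 1) gave 1 higher with TMM factors, with each cell's own CPM and thinned, 3 higher at resolution 2, and 2 higher and 3 lower with another clustering seed, an alternative chosen after seeing the data. Their lower count was 3 with each cell's own CPM, at a mitochondrial limit of 5% and at 15% doublets, 5 with no minimum and 7 with free RNA taken off. IFE basal-like cells (4 and 0) gave 1 higher (Mmp3) thinned, at 200 UMIs and with the pseudocount, 7 and 6 with no minimum and 2 lower with free RNA taken off. Macrophage and dendritic-like cells (3 and 0) gave 0 higher thinned, 6 and 13 with no minimum, 1 higher at 200 UMIs and 1 lower at resolution 2. At 15% doublets 18 of 30 members kept their class of highest level in control. Mmp2 over whole libraries turned to 0.903 with control's cell type shares, and Adamts6 in dermal sheath-like cells to 1.58 at resolution 2. For the setting with free RNA taken off, its share was put at 64.6% of control and 43.7% of TP UMIs in every class. The share came only from the level of 6 keratin genes in 92 control and 176 TP endothelial-like cells against the library. Of these cells, 41 and 23 remained at 15% doublets. Keratin RNA from attached keratinocytes may have raised the share, so it is an extreme setting and not a measured share of free RNA. In IFE basal-like cells Mmp3 ranged from 3.46 to 6.03 over the settings, and in DPC-like cells Adamts18 from 10.9 to 15.5 and Adamts9 from 0.360 to 0.580. Many other ratios moved more. With free RNA taken off, 44 ratios left their counting interval and 30 stayed. Thinned, these counts were 43 and 67, and at a mitochondrial limit of 5% they were 17 and 96. No paired analysis was possible because each group had 1 library. For 25 pairs of gene and setting no value could be given, 12 of them in DF-like cells at 15% doublets, which left 3 control cells. With free RNA taken off, some genes had no level left in a library and so no ratio. These were Adamts9 in DF-like cells, Adamts14 and Adamts17 in DPC-like cells, and Mmp2, Adamts9, Adamts2, Adamts17, Timp2 and Timp3 in IFE basal-like cells.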
